A study of Homo sapiens with 6 samples.

Results

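The genes described here make cholesterol and fatty acids or control how much of them is made. They were chosen for their role, with earlier results of these data known, as a list of 34 gene symbols looked up in the per-library tables of A549-TIPARP and A549-GFP cells, and all 34 were found among the 53826 entries of each table. All 34 also had more than 2 TPM in at least 1 library, the limit that kept 13181 entries for testing. TPM expresses each gene as its part of all the transcripts in a library, after correction for length, so that levels of different genes can be compared. The list held 17 enzymes of sterol synthesis, 5 genes of its control and of sterol transport, 9 genes of fatty acid and lipid synthesis, and 3 genes of the liver X receptor (LXR) system.

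Sterol synthesis starts from acetyl-CoA, passes through mevalonate and the isoprenoid units to squalene, and closes the ring to lanosterol, which is then trimmed to cholesterol. The transcription factors SREBP-1 and SREBP-2 drive the genes of both pathways. The escort protein SCAP carries them out of the endoplasmic reticulum when sterols are low, and INSIG proteins hold them back when sterols are high, so that the target genes usually move together. LXRs are nuclear receptors for oxysterols that turn on sterol export and SREBF1, and TIPARP, a mono-ADP-ribosyltransferase, is known to modify them.

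A549 is a human lung adenocarcinoma line. A549-TIPARP cells carried TIPARP in a retroviral vector as a stable line, and A549-GFP cells carried GFP in the same vector, with 3 libraries of each line. The comparison asks which of these genes differ in level when TIPARP is overexpressed. Values of a line are given in the order of replicates 1, 2 and 3 throughout. The sources used here do not say whether a line was 1 clone, nor whether the libraries of a line came from separate cultures, so p-values measure the spread between these libraries, which may be technical. TIPARP itself stood at 6.79, 11.4 and 3.68 TPM across the A549-GFP libraries and at 131, 90.5 and 123 TPM across the A549-TIPARP libraries (limma adjusted p = 0.0125). The 5 epithelial markers EPCAM, KRT7, KRT8, KRT18 and CDH1 summed to between 10771 and 23386 TPM in A549-GFP libraries and to between 18533 and 22171 TPM in A549-TIPARP libraries. All 5 endothelial markers were listed at the floor of the tables in all 6 libraries, as were 4 of 6 fibroblast markers and 3 of 5 leukocyte markers. Counting entries above the floor, the fibroblast list summed to between 1.09 and 1.44 TPM in A549-GFP libraries and to between 1.64 and 2.56 TPM in A549-TIPARP libraries, where COL1A1 was the whole sum (limma adjusted p = 0.994). The lines did not overlap in this sum, and its part in the results was not tested. The deposited tables hold no counts, so the depth of the libraries is unknown and no counting error was computed. In bulk RNA a lower level per cell and fewer cells with the transcript cannot be told apart. A549-GFP replicate 2 stood farthest from its own line, with a root mean square deviation of 0.621 (log2 scale, across all genes tested) from the mean of the line against 0.185 to 0.400 in the other 5 libraries. This library also held the low values of most genes described here, so the results that rest on it are given with it and without it.

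TM7SF2, a sterol C14-reductase, was the 1 gene of the 34 that stood more than 2-fold higher in A549-TIPARP cells, and none stood more than 2-fold lower. Over all genes tested, 1.53% were past that limit upwards and 0.432% downwards. SC5D, the sterol C5-desaturase, was lower in every A549-TIPARP library than in every A549-GFP library. These were the 2 members with an unadjusted limma p under 0.05, where 3.85% of all genes had one. By limma, none of the 34 had an adjusted p under 0.05 over all genes, where 0.0152% of all genes had one. The libraries of the lines did not overlap for 3 members. TM7SF2 and SREBF2 were higher, where 5.36% of all genes were, and SC5D was lower, where 3.54% were. The median log2 fold change of the 34 genes was 0.27, beside -0.07 over all genes tested. Without A549-GFP replicate 2 it was -0.01, beside 0.05 over all genes.

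**Figure D1:**
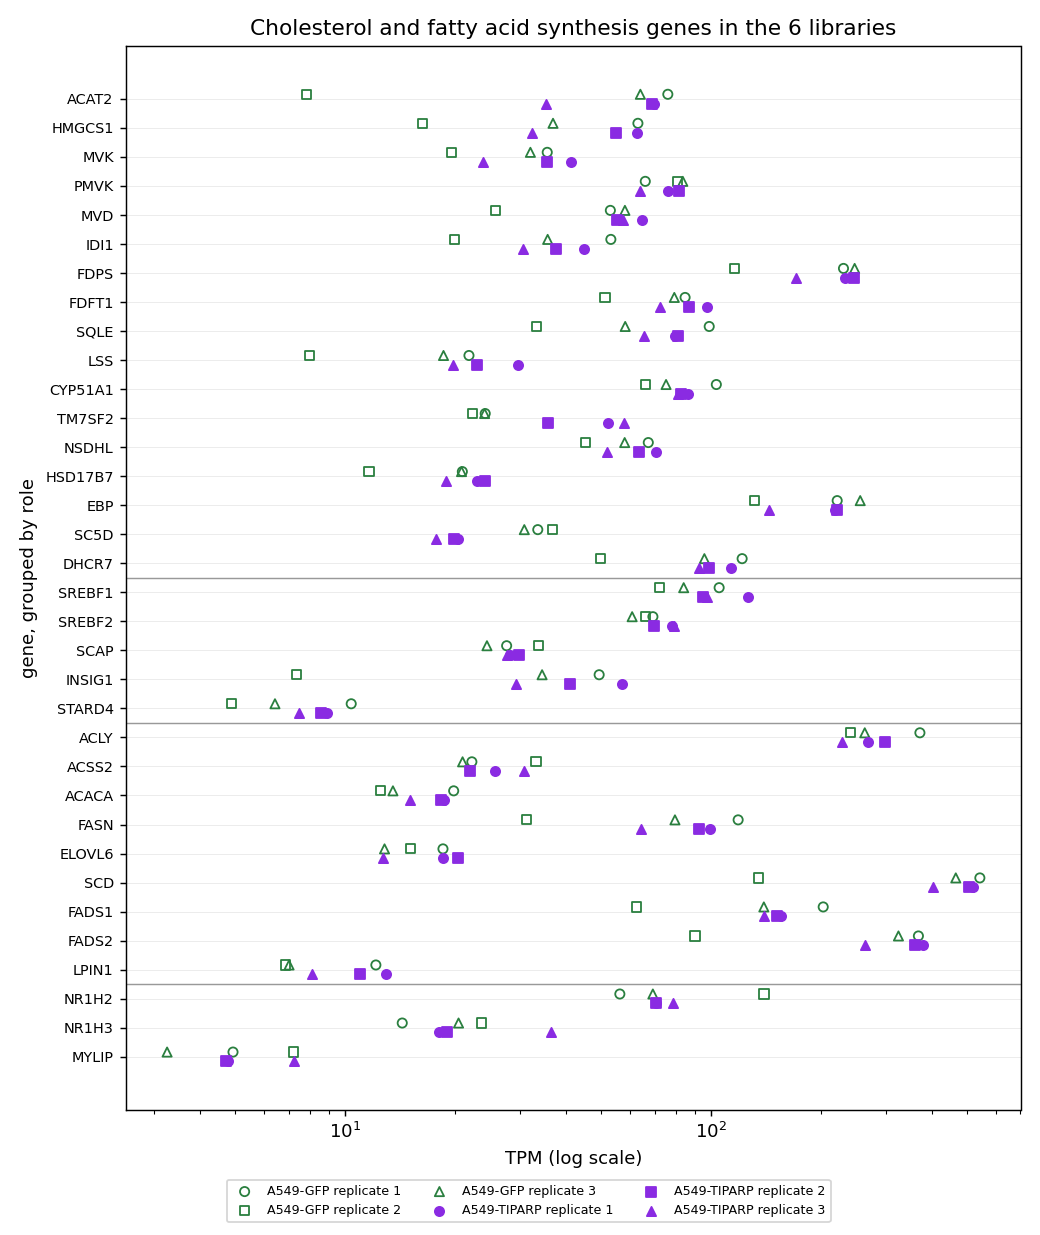
TPM (log axis) of the 34 genes in the 6 libraries, by role from top to bottom: sterol synthesis, SREBP control and transport, fatty acid synthesis, LXR. Open green symbols are A549-GFP and filled purple symbols A549-TIPARP, with circles, squares and triangles for replicates 1, 2 and 3. The open square, A549-GFP replicate 2, is the lowest point for 24 of the 34 genes, while TM7SF2 and SC5D are separated by line.

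The TM7SF2 gene (Entrez 7108) spans chr11:65111845-65116384 of hg38, plus strand. It measured 24.1, 22.3 and 24.0 TPM in the GFP line and 52.1, 35.8 and 57.9 TPM in the TIPARP line. The A549-GFP libraries lay close together, and the spread was in A549-TIPARP cells, whose lowest library was still above all A549-GFP libraries. The mean log2 TPM was 4.55 ± 0.06 (SD, n = 3) in A549-GFP cells and 5.57 ± 0.36 (SD, n = 3) in A549-TIPARP cells, a 2.03-fold difference. The limma fit on log2(TPM + 1) gave a log2 fold change of 0.99 with a standard error of 0.22 (limma adjusted p = 0.477). When A549-GFP replicate 2 was left out, the log2 fold change of the means was 0.98, just under 2-fold, and the adjusted p was 0.124. It was also under 2-fold without A549-TIPARP replicate 1 (0.96) or replicate 3 (0.88). TM7SF2 shares 18 bases with VPS51, a vesicle tethering gene on the same strand. VPS51 reached 61.0, 115 and 78.2 TPM with GFP and 77.6, 67.5 and 95.4 TPM with TIPARP, which left the lines overlapping for the neighbour.

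The SC5D gene (Entrez 6309) spans chr11:121292681-121313410, plus strand, and GENCODE lists no other gene over it. It acts late in the pathway and puts the last double bond into the ring system before DHCR7 acts. It gave 33.6, 36.7 and 30.8 TPM for A549-GFP against 20.3, 19.8 and 17.7 TPM for A549-TIPARP. Both lines were tight, and A549-GFP replicate 2, the lowest library for most sterol genes, was the highest for SC5D. The mean log2 TPM was 5.07 ± 0.13 (SD, n = 3) in A549-GFP cells and 4.26 ± 0.11 (SD, n = 3) in A549-TIPARP cells, 1.75-fold lower. In the limma fit on log2(TPM + 1) the estimate was -0.78 with a standard error of 0.18 (limma adjusted p = 0.560). Leaving out each library in turn moved the log2 fold change of the means only between -0.87 and -0.74. Without A549-GFP replicate 2 the adjusted p was 0.128.

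The mevalonate arm showed no such separation. ACAT2, a cytosolic thiolase that makes acetoacetyl-CoA, stood at 76.1, 7.85 and 64.0 TPM across the A549-GFP libraries and at 69.6, 69.0 and 35.4 TPM across the A549-TIPARP libraries. Its A549-GFP replicate 2 was at 11.2% of the geometric mean of the other 2 A549-GFP libraries, the largest gap among the 34 genes. The log2 fold change of the means was 0.72 with all libraries and -0.33 without A549-GFP replicate 2. It was past 2-fold without A549-GFP replicate 1 (1.30), A549-GFP replicate 3 (1.18) or A549-TIPARP replicate 3 (1.04). ACAT2 shares 485 bases with SOD2 and 615 with TCP1 on the opposite strand, and whether counting used strand is not given in the sources used here. SOD2, the mitochondrial superoxide dismutase, was highest in A549-GFP replicate 2, with 24.7, 61.4 and 19.5 TPM across the A549-GFP libraries. TCP1, a chaperonin subunit, was lower in A549-GFP replicate 2 and A549-TIPARP replicate 3, as ACAT2 was, with 290.4, 193 and 269 TPM for A549-GFP and 222, 292 and 167 TPM for A549-TIPARP.

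HMGCS1, the HMG-CoA synthase of the cytosol, measured 63.0, 16.2 and 36.9 TPM in the GFP line and 62.8, 54.8 and 32.3 TPM in the TIPARP line. A549-TIPARP replicate 3 lay below A549-GFP replicate 3, so the lines overlapped even apart from A549-GFP replicate 2. Its log2 fold change of the means was 0.52, and 0.00 to 2 decimals without that library. MVD, the decarboxylase that ends the mevalonate arm, reached 53.0, 25.8 and 58.1 TPM with GFP and 64.7, 55.1 and 57.3 TPM with TIPARP. Its log2 fold change of the means went from 0.45 to 0.09 without A549-GFP replicate 2. MVK, the mevalonate kinase, PMVK, the kinase that follows it, IDI1, the isomerase of the isoprenoid unit, and FDPS, the farnesyl diphosphate synthase, had log2 fold changes of 0.22, -0.05, 0.15 and 0.19. With A549-GFP replicate 2 left out these were -0.05, -0.01, -0.22 and -0.16, so MVK, IDI1 and FDPS turned direction. PMVK was the exception in this arm, with 66.0, 80.7 and 83.6 TPM across the A549-GFP libraries, where replicate 2 was not low.

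From squalene on, the enzymes other than TM7SF2 and SC5D had log2 fold changes between -0.03 and 0.68. LSS, which closes the ring to lanosterol, gave 21.8, 7.99 and 18.5 TPM for A549-GFP against 29.6, 22.9 and 19.6 TPM for A549-TIPARP. Its log2 fold change of the means was 0.68 (limma adjusted p = 0.994) and 0.24 without A549-GFP replicate 2. SQLE, the squalene epoxidase, stood at 98.7, 33.3 and 58.2 TPM across the A549-GFP libraries and at 79.4, 81.2 and 65.5 TPM across the A549-TIPARP libraries. Its 3 A549-TIPARP libraries all lay inside the A549-GFP range, and its log2 fold change went from 0.38 to -0.01 without A549-GFP replicate 2. FDFT1, the squalene synthase, stood at 0.28 on this scale, CYP51A1, the lanosterol demethylase, at 0.06, NSDHL at 0.13, HSD17B7 at 0.35, EBP at -0.03 and DHCR7, the last reductase, at 0.28. Leaving out A549-GFP replicate 2 put FDFT1 at 0.05, CYP51A1 at -0.08, NSDHL at -0.03, HSD17B7 at 0.07, EBP at -0.32 and DHCR7 at -0.09. NSDHL and HSD17B7 take part in removing the methyl groups at C4, and EBP moves a double bond of the ring. EBP was among the most abundant of the sterol enzymes, with 221, 131 and 255 TPM across the A549-GFP libraries and 217, 220.4 and 144 TPM across the A549-TIPARP libraries. HSD17B7 has near-identical pseudogenes, and how reads were split between such copies is not given in the sources used here.

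Among the regulators, SREBF2, the gene of SREBP-2, showed a small difference without overlap. It measured 69.3, 66.2 and 60.8 TPM in the GFP line and 78.0, 69.8 and 79.2 TPM in the TIPARP line. The lowest A549-TIPARP library was above the highest A549-GFP library by less than the spread within either line. The mean log2 TPM was 6.03 ± 0.10 (SD, n = 3) and 6.24 ± 0.10 (SD, n = 3), a 1.16-fold difference. By limma the log2 fold change on log2(TPM + 1) was 0.21 with a standard error of 0.16 and an adjusted p of 0.994. The log2 fold change of the means was 0.21, and 0.22 without A549-GFP replicate 2. SREBF1, the gene of SREBP-1, reached 105, 72.3 and 84.1 TPM with GFP and 126, 94.7 and 97.1 TPM with TIPARP, with overlap between the lines. Its log2 fold change of the means was 0.29, and 0.16 without A549-GFP replicate 2. Gene-level values do not separate its isoforms. SCAP gave 27.6, 33.8 and 24.4 TPM for A549-GFP against 28.3, 29.8 and 27.7 TPM for A549-TIPARP, a log2 fold change of 0.01, and of 0.14 without A549-GFP replicate 2.

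INSIG1, itself an SREBP target whose protein retains SCAP, stood at 49.4, 7.35 and 34.5 TPM across the A549-GFP libraries and at 57.1, 41.0 and 29.2 TPM across the A549-TIPARP libraries. A549-GFP replicate 2 was at 17.8% of the geometric mean of the other 2 A549-GFP libraries. The log2 fold change of the means was 0.82, second to TM7SF2 in size, and -0.01 without that library. Without A549-GFP replicate 1, A549-GFP replicate 3 or A549-TIPARP replicate 3 it was 1.36, 1.10 or 1.06. STARD4, a soluble sterol carrier, measured 10.4, 4.87 and 6.42 TPM in the GFP line and 8.88, 8.60 and 7.46 TPM in the TIPARP line, a log2 fold change of 0.27 that was 0.02 without A549-GFP replicate 2.

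The promoters of 5 of these genes are shown. HMGCS1 and INSIG1 were low in A549-GFP replicate 2, and the libraries of SREBF2, TM7SF2 and SC5D did not overlap between lines. Such separation was about as frequent among the members as among all genes tested. Each promoter is the 250 bases before the first transcription start that RefSeq lists on GRCh38.p14, 5′ to 3′ on the strand of the gene. Motif matches are in capitals. GENCODE places the starts of HMGCS1, INSIG1, TM7SF2 and SC5D farther upstream, so their windows reach into the GENCODE gene bodies. HMGCS1 is chr5:43313413-43313662 (minus), INSIG1 chr7:155297628-155297877 (plus), SREBF2 chr22:41832855-41833104 (plus), TM7SF2 chr11:65111622-65111871 (plus) and SC5D chr11:121292521-121292770 (plus).
HMGCS1: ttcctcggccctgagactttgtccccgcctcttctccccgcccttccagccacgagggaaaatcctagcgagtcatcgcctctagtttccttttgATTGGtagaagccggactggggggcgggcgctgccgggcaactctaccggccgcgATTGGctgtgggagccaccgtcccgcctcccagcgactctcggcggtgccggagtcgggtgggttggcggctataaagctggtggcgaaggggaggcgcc
INSIG1: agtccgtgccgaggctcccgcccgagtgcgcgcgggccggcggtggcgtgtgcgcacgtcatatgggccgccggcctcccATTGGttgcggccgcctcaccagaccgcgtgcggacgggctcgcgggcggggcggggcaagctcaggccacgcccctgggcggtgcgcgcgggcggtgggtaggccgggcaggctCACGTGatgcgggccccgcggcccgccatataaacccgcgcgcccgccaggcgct
SREBF2: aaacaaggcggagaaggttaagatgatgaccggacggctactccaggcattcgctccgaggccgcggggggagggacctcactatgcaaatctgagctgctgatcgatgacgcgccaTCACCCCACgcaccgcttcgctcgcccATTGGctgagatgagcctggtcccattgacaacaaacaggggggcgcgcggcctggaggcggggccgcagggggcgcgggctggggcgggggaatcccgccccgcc
TM7SF2: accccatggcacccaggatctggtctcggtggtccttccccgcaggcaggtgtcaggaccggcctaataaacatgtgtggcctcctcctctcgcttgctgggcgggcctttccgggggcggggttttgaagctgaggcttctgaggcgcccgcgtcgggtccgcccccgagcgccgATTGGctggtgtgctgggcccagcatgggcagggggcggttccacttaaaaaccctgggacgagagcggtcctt
SC5D: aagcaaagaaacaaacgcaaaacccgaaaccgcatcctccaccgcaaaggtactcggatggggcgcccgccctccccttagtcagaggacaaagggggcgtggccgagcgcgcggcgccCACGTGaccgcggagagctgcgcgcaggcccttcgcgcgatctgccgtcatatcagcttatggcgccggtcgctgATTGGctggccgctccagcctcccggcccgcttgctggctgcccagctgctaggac

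The motifs searched, on both strands, were the core of the sterol response element that SREBPs bind (TCACNCCAC, where N is any base), the E-box CACGTG, and the CCAAT box that NF-Y binds (CCAAT, or ATTGG on the other strand). No match overlapped another in the 5 windows shown. Of the 34 genes, 30 had a window in the RefSeq table, and ACAT2, FASN, FDFT1 and SQLE were not in it. The sterol response element core stood in 1 of the 30 windows, that of SREBF2, 133 bases before the start, and in 0.831% of the 10344 windows of tested genes. A CCAAT box stood in 18 of the 30 windows, or 60.0%, and in 35.1% of the windows of tested genes. It was present in all 5 promoters shown, at 155 and 100 bases before the start of HMGCS1, 170 for INSIG1, 106 for SREBF2, 74 for TM7SF2 and 56 for SC5D. An E-box stood in 3 of the 30, SCAP, INSIG1 and SC5D, and in 9.03% of the windows of tested genes. Distances are to the RefSeq start. By GENCODE positions the nearer CCAAT box of HMGCS1, the CCAAT box of SC5D and the E-box of INSIG1 lie inside the gene. A match describes the letters in the window and not a bound site.

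The fatty acid genes had log2 fold changes between -0.12 and 0.58, none past 2-fold and none with an unadjusted limma p under 0.05. SCD, the stearoyl-CoA desaturase, had the highest mean level of the 34 genes in both lines, though not in A549-GFP replicate 2, with 542, 135 and 466 TPM across the A549-GFP libraries and 520.0, 506 and 404 TPM across the A549-TIPARP libraries. FADS2, the delta-6 desaturase of polyunsaturated fatty acids, reached 368, 90.3 and 325 TPM with GFP and 378, 361 and 263 TPM with TIPARP. For both desaturases A549-GFP replicate 2 was alone at the bottom, at 26.8% and 26.1% of the geometric mean of the other 2 A549-GFP libraries. Their log2 fold changes of the means went from 0.55 to -0.09 for SCD and from 0.58 to -0.07 for FADS2 without it. FADS1, the delta-5 desaturase, lies on chromosome 11 beside FADS2 on the opposite strand, and GENCODE gene bodies of the pair share 29692 bases. FADS2 also shares 4259 bases with FEN1, a nuclease gene on the same strand. FADS1 gave 202, 62.5 and 139 TPM for A549-GFP against 155, 151 and 139.6 TPM for A549-TIPARP. For FADS1 the log2 fold change of 0.30 was -0.18 without A549-GFP replicate 2.

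FASN, the fatty acid synthase, stood at 118, 31.3 and 79.6 TPM across the A549-GFP libraries and at 99.3, 92.6 and 64.4 TPM across the A549-TIPARP libraries, with all A549-TIPARP libraries inside the A549-GFP range. The log2 fold change of FASN was 0.34, and -0.21 without A549-GFP replicate 2. ACLY, which makes cytosolic acetyl-CoA from citrate, and ACACA, the acetyl-CoA carboxylase, had log2 fold changes of -0.12 and 0.21. ELOVL6, an elongase of saturated chains, stood at 0.14 and LPIN1, a phosphatidate phosphatase, at 0.33. For ACLY, ACACA, ELOVL6 and LPIN1 the values without A549-GFP replicate 2 were -0.25, 0.08, 0.13 and 0.18. ACSS2, which makes acetyl-CoA from acetate, was the 1 gene of this group with its highest value in A549-GFP replicate 2, with 22.2, 33.2 and 20.9 TPM across the A549-GFP libraries and 25.6, 21.9 and 30.8 TPM across the A549-TIPARP libraries. The log2 fold change of ACSS2 was 0.05, and 0.26 without that library.

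The LXR genes were not low in A549-GFP replicate 2, which was the highest of the 6 libraries for 52.0% of all genes tested. NR1H2 was highest there, whereas NR1H3 and MYLIP were highest in A549-TIPARP replicate 3. NR1H2, the gene of LXR-beta, measured 56.3, 139 and 69.3 TPM in the GFP line and 70.4, 70.7 and 78.4 TPM in the TIPARP line. NR1H2 shares bases with NAPSA on the opposite strand. Its A549-TIPARP libraries were all above A549-GFP replicates 1 and 3 and all below replicate 2. The log2 fold change of the means was -0.16 with that library and 0.23 without it, with limma adjusted p of 0.994 and 0.671. NR1H3, the gene of LXR-alpha, reached 14.3, 23.6 and 20.4 TPM with GFP and 18.0, 19.0 and 36.5 TPM with TIPARP. Its log2 fold change of 0.29 came to -0.04 without A549-TIPARP replicate 3 and to 0.44 without A549-GFP replicate 2. MYLIP, an LXR target whose protein marks lipoprotein receptors for degradation, gave 4.93, 7.23 and 3.26 TPM for A549-GFP against 4.78, 4.73 and 7.26 TPM for A549-TIPARP, a log2 fold change of 0.17 that was 0.45 without A549-GFP replicate 2. ABCG1, a sterol exporter and LXR target picked here with its values known, stood at 2.35, 19.7 and 3.12 TPM across the A549-GFP libraries and at 3.49, 3.63 and 6.66 TPM across the A549-TIPARP libraries. The exporter ABCA1 had at most 1.56 TPM in any library and was not tested.

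A549-GFP replicate 2 was the lowest of the 6 libraries for 24 of the 34 genes, where it was so for 13.1% of all genes tested, and it was the highest for 4 of the 34, where it was so for 52.0% of all genes. It was lowest for 15 of 17 sterol enzymes, 3 of 5 control and transport genes, 6 of 9 fatty acid genes and 0 of 3 LXR genes. Against the mean of the other 2 A549-GFP libraries, the median gene was 0.86 lower (log2 scale) in the sterol group and 0.43 lower in the fatty acid group, and 0.38 higher over all genes tested. A549-TIPARP replicate 3 was the lowest A549-TIPARP library for 26 of the 34 genes, where it was so for 46.9% of all genes. It was lowest for 15 of 17 sterol enzymes and 8 of 9 fatty acid genes, and for none of NR1H2, NR1H3 and MYLIP. TM7SF2 was not among them, since A549-TIPARP replicate 3 was its highest library.

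**Figure D2:**
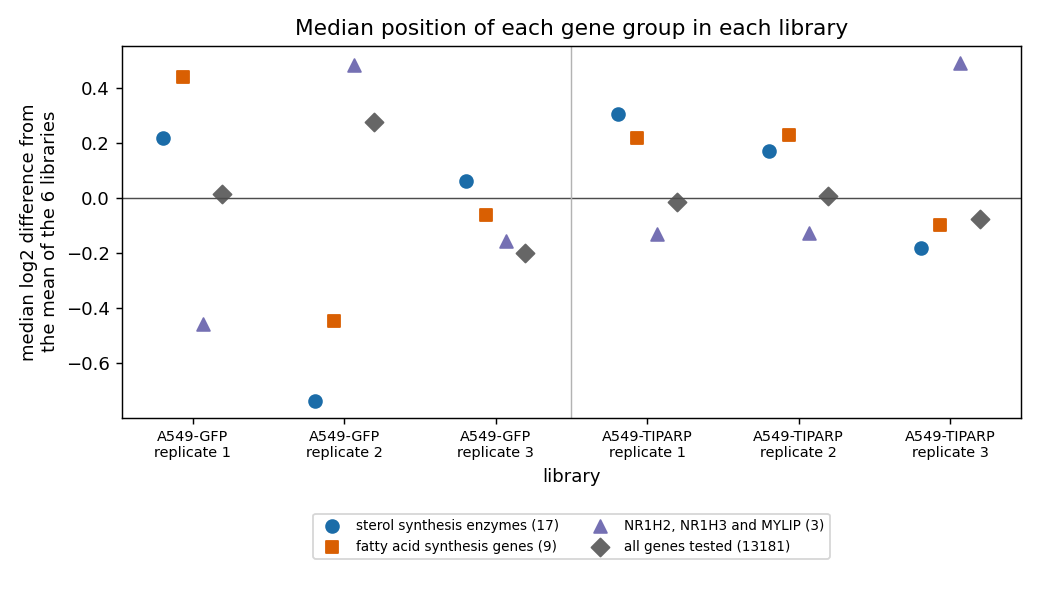
Median log2 difference of each gene group from its mean over the 6 libraries, by library. A549-GFP replicate 2 is at -0.74 for the 17 sterol enzymes and -0.45 for the 9 fatty acid genes, while it is at 0.48 for NR1H2, NR1H3 and MYLIP and at 0.28 for all genes tested. A549-TIPARP replicate 3 is at -0.18, -0.10, 0.49 and -0.08.

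Values of other genes moved with these libraries. A549-GFP replicate 2 had the lowest summed epithelial markers, 10771 TPM against 18533 to 23386 TPM in the other 5 libraries, which came from KRT8 and KRT18. The other 3 epithelial markers were not lowest there, and KRT7 (2433 TPM) and CDH1 (142 TPM) had their highest values in it. The summed leukocyte list was also highest there, 74.1 TPM against 30.7 to 42.9 TPM in the other 5 libraries, and 68.1 TPM of it was CD68. LYZ had 5.95 TPM in A549-GFP replicate 2, below 2 A549-TIPARP libraries (7.25 and 6.88 TPM), and PTPRC and CD3E were listed at the floor in all 6 libraries. The part of such differences in the sterol values was not tested.

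The counts by group differed with A549-GFP replicate 2 left out. With all libraries the mean was higher in the TIPARP line for 29 of the 34 genes and for 40.1% of all genes. Without it the mean was higher for 16 of the 34 and for 56.7% of all genes. The median log2 fold change of the sterol enzymes went from 0.28 to -0.03 and that of the fatty acid genes from 0.30 to -0.07. The LXR genes went from 0.17 to 0.44. Without this library no member was past 2-fold, where 3.0% of all genes were higher and 0.306% lower by that much. By limma none had an adjusted p under 0.05, where 0.149% of all genes had one, and TM7SF2 and SC5D were again the 2 with an unadjusted p under 0.05, where 10.7% of all genes had one. The libraries that remained did not overlap for 4 higher members, TM7SF2, SREBF2, SCAP and NR1H2, where 21.5% of all genes were higher in this way. They did not overlap for 2 lower members, SC5D and EBP, where 6.49% of all genes were lower. Without A549-GFP replicate 1, which leaves the low library more weight, 3 members (INSIG1, ACAT2 and TM7SF2) were more than 2-fold higher, where 2.47% of all genes were. In that fit 5 members had an unadjusted limma p under 0.05, where 3.13% of all genes had one, and 10 were higher without overlap, where 8.13% of all genes were.

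**Figure D3:**
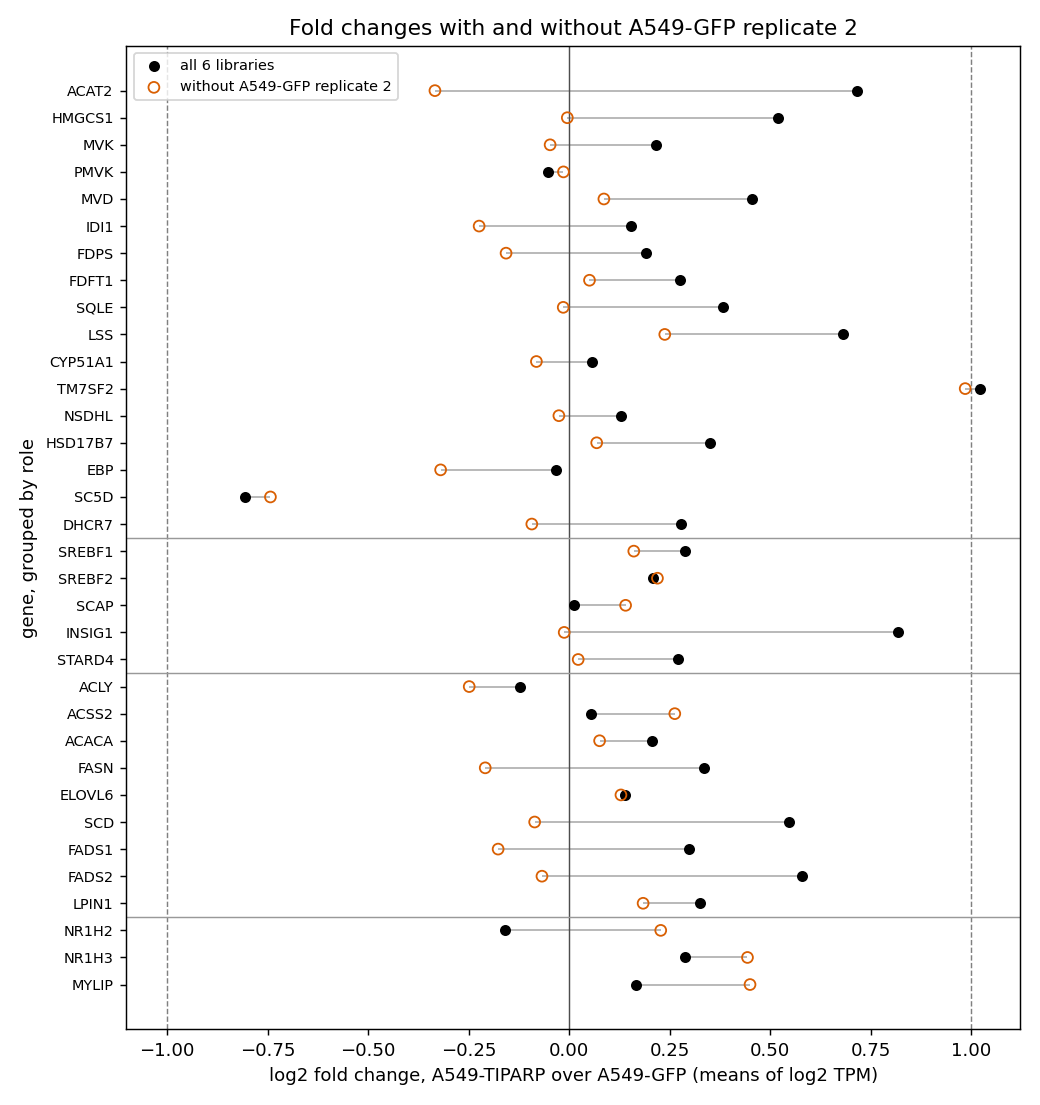
Log2 fold change of the means (A549-TIPARP over A549-GFP) of the 34 genes with all 6 libraries (filled black) and without A549-GFP replicate 2 (open orange), joined by a grey line, with dashed lines at 2-fold. TM7SF2 stays near 1 and SC5D near -0.8, whereas ACAT2 goes from 0.72 to -0.33 and INSIG1 from 0.82 to -0.01.

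**Figure D4:**
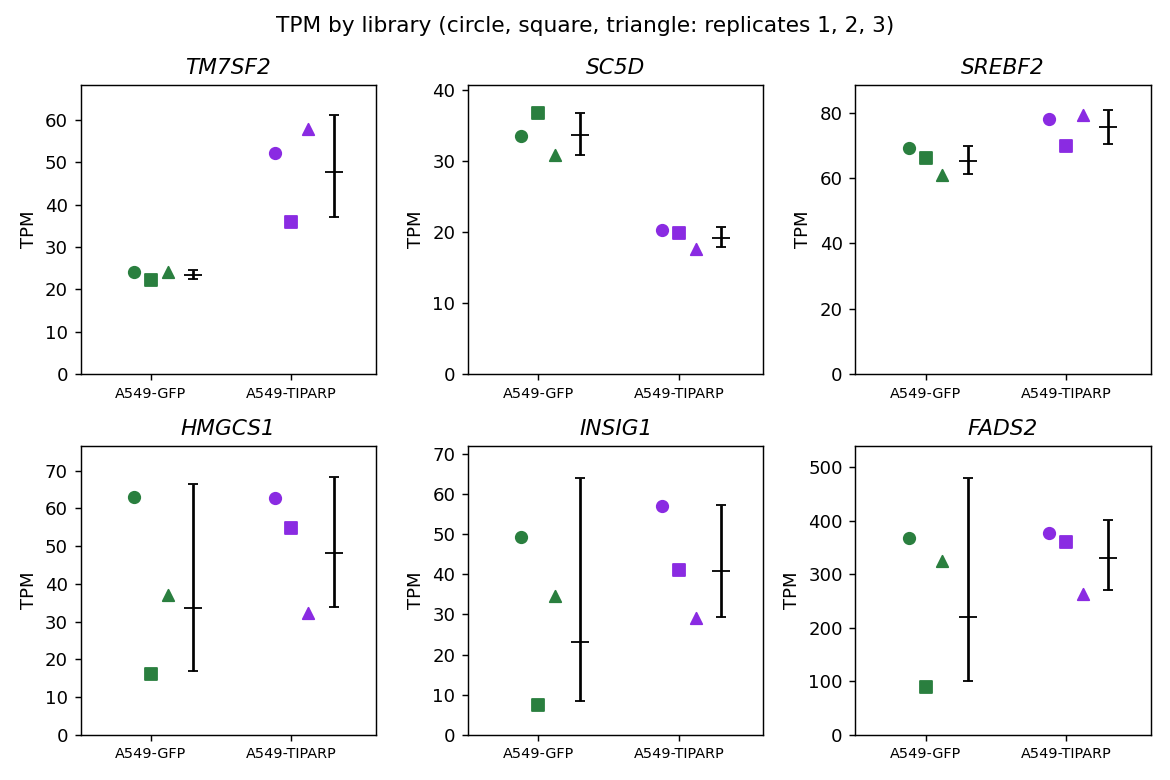
TPM of 6 genes by library, with circles, squares and triangles for replicates 1, 2 and 3. Green is A549-GFP and purple A549-TIPARP. Bars at the right of each line show the geometric mean and 1 SD on the log2 scale (n = 3). TM7SF2, SC5D and SREBF2 are separated by line, whereas the low square of A549-GFP in HMGCS1, INSIG1 and FADS2 widens the bar of that line.

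Genes of the same and neighbouring pathways that were not members were counted in 6 lists, with ABCA1 and ABCG1 on 2 of them. Of their 85 genes 81 were tested. By limma none had an adjusted p under 0.05, beside 0.0152% of all genes, and 1, SCD5, had an unadjusted one, beside 3.85% of all genes. SCD5, a second stearoyl-CoA desaturase, measured 3.84, 2.84 and 1.65 TPM in the GFP line and 7.72, 7.29 and 10.1 TPM in the TIPARP line. No library of the GFP line reached any of the TIPARP line, and the 3.16-fold difference was the only one past 2-fold among the 81, beside 1.53% of all genes past 2-fold higher (limma adjusted p = 0.424). With A549-GFP replicate 2 left out it was 3.29-fold (adjusted p = 0.112). Its level stayed far below that of SCD in both lines.

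The sterol list of 12 genes had a median log2 fold change of -0.03. ERG28, a scaffold of the C4-demethylation enzymes, was higher without overlap, with 82.1, 60.3 and 78.7 TPM against 84.0, 84.9 and 84.5 TPM, and A549-GFP replicate 2 was again the lowest. Among 13 tested genes of sterol traffic, median -0.06, NPC2, which hands cholesterol out of the lysosome, reached 137, 165 and 135 TPM with GFP and 201, 165.1 and 181 TPM with TIPARP. Its highest A549-GFP library and lowest A549-TIPARP library were almost level. Among 18 genes of fatty acid oxidation, median -0.03, ACAA2, the mitochondrial thiolase, gave 66.9, 65.8 and 66.0 TPM for A549-GFP against 81.2, 81.1 and 74.3 TPM for A549-TIPARP. This 1.19-fold difference was larger than the spread within either line, and its adjusted limma p was 0.994. The other fatty acid genes (23 tested), triglyceride genes (10) and LXR partners (6 tested) had medians of 0.03, 0.09 and -0.13. Without A549-GFP replicate 2 the median of the triglyceride genes was 0.39 and those of the other 5 lists lay between 0.05 and 0.08, and 11 of the 81 genes had an unadjusted limma p under 0.05, where 10.7% of all genes had one, and 0 an adjusted one. GRAMD1A, a sterol transfer protein picked after its values were seen, was then 2.01-fold higher (adjusted p = 0.159).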

How the data were processed

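RNA of A549-GFP and A549-TIPARP cells, 3 libraries each, was sequenced as paired-end reads on an Illumina NovaSeq instrument. The authors used Strand NGS, with its default settings, to align reads against hg38 transcripts, and deposited 1 table per library with the log2 TPM of each gene entry, in which TPM below 1 had been set to 1. The software version, the annotation release and the treatment of strand and of reads matching several genes are not given in the sources used here. Libraries were grouped and numbered by their titles, and the numbering in the deposited file names differs from it.

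Entries with TPM above 2 in at least 1 library were tested, as in the study. Fold changes are differences of the mean deposited log2 values. limma 3.58.1 (R 4.3.3) was run on log2(TPM + 1) of all 13181 entries with trended variances and p-values adjusted by Benjamini-Hochberg, where entries at the floor counted as 1 TPM. This scale understates changes of low genes. With 3 against 3 libraries an exact two-sided permutation test of a single gene cannot go below 0.1, and none was run. The fit was tested on simulated data. Genes given in every library are those past 2-fold, with an unadjusted p under 0.05, without overlap, among the 10 largest changes, and 6 regulators, and others where noted or where a group is described. Some items that the rule names are not reported here. The members and lists were chosen with earlier results of these data known. Gene positions are from GENCODE 44 and promoters from RefSeq. Alternatives were other low-value filters, pseudocounts, rescaling, no trend, a replicate block and each library left out.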

Additional observations from a re-analysis of the deposited data

How the results depend on the processing

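No alternative gave any of the 34 genes a limma adjusted p under 0.05; the lowest was 0.124, for TM7SF2 without A549-GFP replicate 2. TM7SF2 was the 1 gene past 2-fold higher, and 0 were with a pseudocount of 1 (its log2 fold change was then 0.99). When single libraries were dropped, the number past 2-fold higher ranged from 0 to 3, that with an unadjusted p under 0.05 from 2 to 5, and that without overlap from 2 to 10 (higher) and from 1 to 2 (lower). The upper ends came without A549-GFP replicate 1, where 2.47% of all genes were past 2-fold higher, 3.13% had an unadjusted p under 0.05 and 8.13% were higher without overlap, and for the lower genes without A549-GFP replicate 2 (6.49% of all genes). The count past 2-fold higher was also 3 without A549-GFP replicate 3, where 265 of 13158 genes tested were. The median log2 fold change of the members ranged from -0.0086 (without A549-GFP replicate 2) to 0.42. The 15 genes given in every library by rule had 360 values under alternatives, most alternatives counting once by means and once by limma. Many could not move, since filters alter neither estimate, and no trend or the replicate block leave the limma estimate unchanged. Of the 360 values, 338 kept their direction, and the 22 that did not all came from leaving out 1 library. The ranges over these fits, on the scale of the means and by limma, were -0.33 to 1.30 and -0.33 to 1.23 for ACAT2, -0.00475 to 0.97 and -0.00442 to 0.94 for HMGCS1, -0.015 to 0.77 and -0.015 to 0.76 for SQLE, -0.095 to 0.14 and -0.092 to 0.14 for SCAP, -0.012 to 1.36 and -0.011 to 1.28 for INSIG1, -0.086 to 0.92 and -0.086 to 0.91 for SCD, -0.068 to 0.95 and -0.068 to 0.94 for FADS2, -0.43 to 0.23 and -0.42 to 0.22 for NR1H2, and -0.039 to 0.47 and -0.038 to 0.45 for NR1H3. Across genes, the deviations of libraries sharing an experiment number had correlations of 0.415, -0.486 and -0.358. Deviations from a mean of 3 libraries depend on one another, so these values cannot show whether the libraries were paired. The numbers were not used as a pairing in the main fit, and whether same-numbered libraries were made together is not stated. The numbers are those of the titles, and the deposited files are numbered differently. With the replicate block 0 members had an adjusted p under 0.05 and 2 an unadjusted one, TM7SF2 and SC5D, both with an adjusted p of 0.999, beside 1 and 414 of the 13181 genes tested. Over all genes, 202 were more than 2-fold higher and 57 lower, against 78 and 20 with a pseudocount of 1 and 228 to 383 and 39 to 200 with 1 library left out. An unadjusted p under 0.05 was found for 508 genes, for 784 after rescaling and for 242 to 1367 with 1 library left out, and an adjusted one for 2 genes, for 1 to 19 with 1 library left out. Depth is unknown, so the counting error of low genes such as MYLIP and STARD4 could not be given.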
